A study of Mus musculus with 6 samples.

Results

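Bcl11b encodes a zinc finger transcription factor that early T cell progenitors need to commit to the T-lineage and that B-lineage cells do not use. It lies beside a gene desert. Its activation in early T cells is known to involve an enhancer region far downstream of the gene, from which non-coding RNA is transcribed. H3K4me3 is the histone mark of active promoters, where it flanks the transcription start site (TSS), and it is also found at some distal elements.

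The H3K4me3 peaks on chromosome 12 of GRCm38 in a region of 2.5 Mb around Bcl11b, from Vrk1 to Eml1, were described in 2 mouse cell lines. They numbered 36 of the 35117 peaks of both lists, with 33 of 15513 in Scid.adh.2C2 and 3 of 19604 in an Abelson-transformed progenitor B cell line. The peaks were chosen by position alone, but the region was selected on the presence and the fold enrichment of peaks in these same lists, so that the counts and values per line are a description and were not tested.

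Scid.adh.2C2 is labelled as a T cell progenitor. A CB17 mouse with the Prkdc scid mutation, in which a thymic lymphoma arose spontaneously, gave the parent line from which it was cloned. The Abelson-transformed line is labelled as a progenitor B cell line and is called the B cell progenitor line below. The figures print it under the name on its sample labels. Each is 1 tumour-derived or transformed line, and each was assayed by ChIP-seq with 2 H3K4me3 libraries and 1 input library. The authors combined the replicates of a line in 1 peak list, so that the replicates cannot be compared and the depth of the libraries is unknown. The fold enrichment of each peak over the local background is the value of the authors' peak caller. It was computed for each list on its own, and folds of the lines are given side by side with no comparison.

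The cell types on the labels were checked at the promoters of marker genes. Windows of 2500 bp before and after any annotated TSS were taken as promoters, which were marked if at least 1 bp fell under a peak. Of all 21951 protein-coding genes, 45.5% were marked in Scid.adh.2C2, 48.2% in the B cell progenitor line and 42.2% in both. All 8 T-lineage markers were marked in Scid.adh.2C2 and 2 of the 8 in the B cell progenitor line, where Lck and Tcf7 had a peak. All 8 B-lineage markers were marked in the B cell progenitor line and 1 of the 8 in Scid.adh.2C2. The exception was Vpreb1, which encodes part of the surrogate light chain, with a 29.9-fold peak in Scid.adh.2C2. None of the 4 myeloid markers Csf1r, Lyz2, Mpo and Elane was marked in either line. Among the defining T-lineage genes, Cd3e had a 41.5-fold peak in Scid.adh.2C2, Cd3g a 38.0-fold peak and Thy1 a 38.6-fold peak, while Ptcra had 16.6-fold, and none of these promoters had a peak in the B cell progenitor line. Rag1, which is counted among the 8 but is used by B and T cell progenitors alike and so does not tell them apart, had a 16.5-fold peak in Scid.adh.2C2 and none in the B cell progenitor line. Lck peaks reached 16.0-fold in Scid.adh.2C2 and 16.8-fold in the B cell progenitor line. Of the B-lineage regulators, Ebf1 and Pax5 had no promoter peak in Scid.adh.2C2 and a highest fold of 26.1 and 21.4 in the B cell progenitor line.

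The sequence around the summit, the position of the highest signal, is shown for 5 Scid.adh.2C2 peaks. The first pair are the 2 widest peaks of the region, which cover the Bcl11b promoter and a part of the desert 1.42 Mb away from it. The Gm2800 peak lies at the promoter of a non-coding gene, and the last pair are intergenic peaks with matches to 2 different motifs each. These were selected after the matches had been seen. Each run has 300 bases of the plus strand of GRCm38, 5′ to 3′, while Bcl11b is transcribed from the minus strand. Capitals mark matches on either strand to AGATAA (motif of the GATA factors), CTTTGAA (Tcf7 and Lef1), TGTGGT (Runx factors), CAGCTG (E proteins) and GTGGGAA (Rbpj, the DNA-binding partner of Notch). The E protein motif is its own reverse complement and was counted once. No window overlaps an annotated exon.
Bcl11b domain (chr12:108001102-108001401): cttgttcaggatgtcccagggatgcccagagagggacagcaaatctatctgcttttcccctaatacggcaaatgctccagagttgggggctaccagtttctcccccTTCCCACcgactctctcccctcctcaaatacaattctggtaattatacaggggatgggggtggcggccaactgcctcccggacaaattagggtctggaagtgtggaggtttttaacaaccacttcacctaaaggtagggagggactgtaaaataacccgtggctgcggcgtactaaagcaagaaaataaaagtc
Distal domain (chr12:106579838-106580137): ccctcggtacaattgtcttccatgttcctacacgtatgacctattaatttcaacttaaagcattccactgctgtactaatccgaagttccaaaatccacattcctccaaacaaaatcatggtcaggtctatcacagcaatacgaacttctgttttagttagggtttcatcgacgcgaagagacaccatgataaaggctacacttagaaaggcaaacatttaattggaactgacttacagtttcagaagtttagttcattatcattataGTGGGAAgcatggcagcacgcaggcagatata
Gm2800 promoter peak (chr12:107184055-107184354): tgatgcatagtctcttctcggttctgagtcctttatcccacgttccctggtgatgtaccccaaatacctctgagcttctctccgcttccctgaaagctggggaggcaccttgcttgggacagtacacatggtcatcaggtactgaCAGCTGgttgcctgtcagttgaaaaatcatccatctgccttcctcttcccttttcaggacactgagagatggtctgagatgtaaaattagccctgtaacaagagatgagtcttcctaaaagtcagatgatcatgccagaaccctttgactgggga
Peak beyond Gm15208 (chr12:107812452-107812751): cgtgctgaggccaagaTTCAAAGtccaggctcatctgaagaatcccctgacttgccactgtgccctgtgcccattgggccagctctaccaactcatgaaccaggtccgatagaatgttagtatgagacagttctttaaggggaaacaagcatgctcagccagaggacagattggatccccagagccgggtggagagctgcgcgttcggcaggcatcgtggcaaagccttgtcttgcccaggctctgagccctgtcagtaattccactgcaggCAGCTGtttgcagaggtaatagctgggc
Peak beyond 4933406K04Rik (chr12:106658496-106658795): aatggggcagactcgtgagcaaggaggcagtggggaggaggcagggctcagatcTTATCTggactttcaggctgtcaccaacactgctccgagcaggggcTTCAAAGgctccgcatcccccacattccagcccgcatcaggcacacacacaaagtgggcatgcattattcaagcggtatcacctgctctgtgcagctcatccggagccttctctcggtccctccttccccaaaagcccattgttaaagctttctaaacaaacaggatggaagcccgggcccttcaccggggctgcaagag

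The Bcl11b and distal domain windows each hold 1 Rbpj match, on opposite strands. The Gm2800 window has 1 E protein match, the window beyond Gm15208 1 Tcf7/Lef1 and 1 E protein match, and that beyond 4933406K04Rik 1 GATA and 1 Tcf7/Lef1 match. The 10.1-fold intergenic peak beside the distal domain also had matches to 2 different motifs, Runx and E protein, and is not shown. None of the windows shown holds a Runx match. A match is a run of letters and was not tested for binding.

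At Bcl11b itself, Scid.adh.2C2 had a domain of 9.8 kb and the B cell progenitor line had no peak. Bcl11b (ENSMUSG00000048251) is transcribed from the minus strand, where it occupies 107910403 to 108003602, with annotated TSSs at 108003602 and 108003414. The domain reached from 107996918 to 108006710 and contained both TSSs. It extended 3108 bp upstream of the outer TSS and 6684 bp into the gene, and its summit lay 2350 bp downstream of that TSS in the first intron. The fold enrichment was 33.2 and the −log10 q was 188. In the list of 15513 peaks, it ranked 3 by width, 339 by −log10 q and 1727 by fold. The score from the irreproducible discovery rate (IDR), which compares peak ranks between the replicates and is 1000 at its highest, was 873 for this peak. Scores under 1000 were found for 6.45% of the whole Scid.adh.2C2 list and for 9 of the 33 peaks of the region. With only peaks that score 1000, the Bcl11b promoter was therefore unmarked.

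A further 4 Scid.adh.2C2 peaks lay inside the gene, all in introns. A pair of peaks stood 9.2 kb and 8.1 kb downstream of the TSS, next to the domain, with a fold of 8.06 and 6.34. Another pair stood 76.0 kb and 74.5 kb downstream, with a fold of 13.3 over 2.8 kb and of 6.41 over 0.7 kb. Together, the 5 peaks covered 15.0 kb of the locus. None of the 4 intragenic peaks reached a promoter window of the GENCODE annotation. Apart from the 3108 bp under the domain, the 102.8 kb between Bcl11b and Setd3 held no peak in either line.

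**Figure D1:**
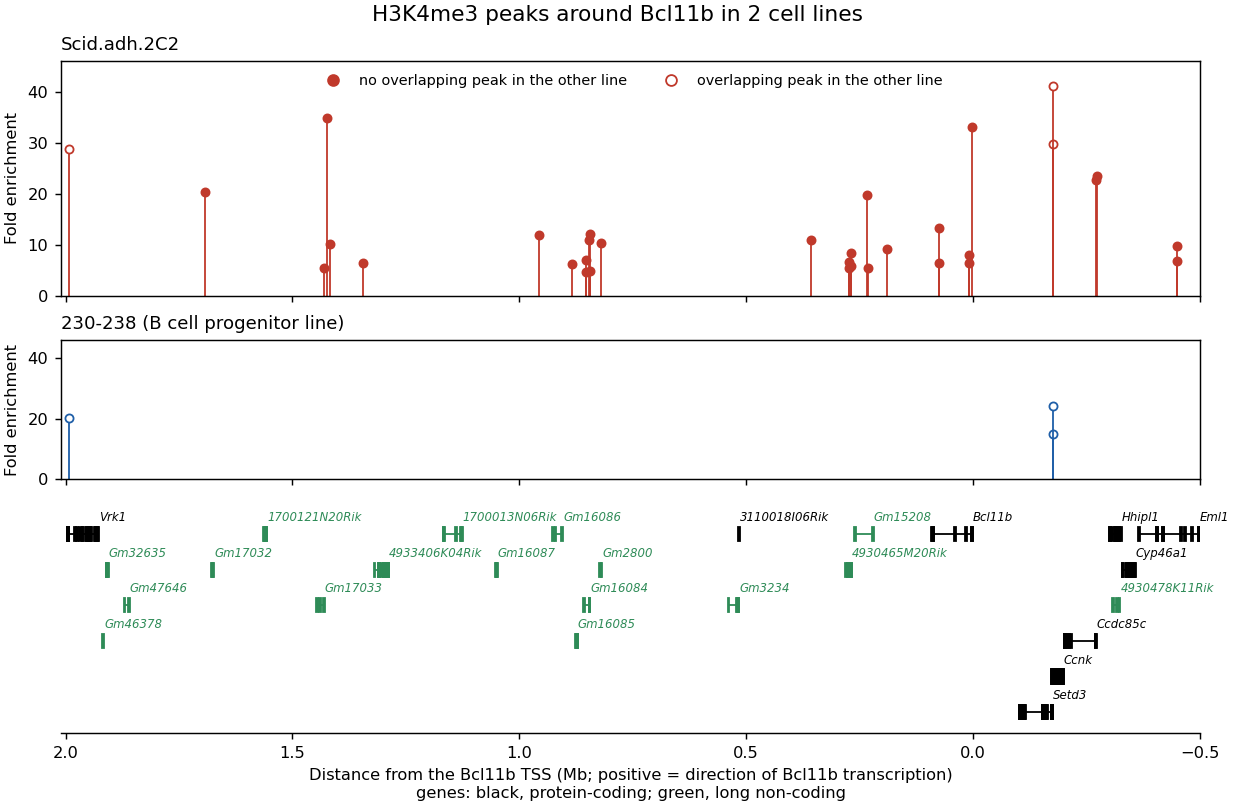
Fold enrichment of each H3K4me3 peak (y) against the distance of its summit from the Bcl11b TSS in Mb (x, positive in the direction of Bcl11b transcription), for Scid.adh.2C2 above and the B cell progenitor line in the middle, with protein-coding genes (black) and long non-coding genes (green) below. Filled points have no overlapping peak in the other line, and the 3 peaks of the B cell progenitor line stand at Vrk1 and at Setd3 and Ccnk only.

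Downstream of Bcl11b, the next gene that both GENCODE and RefSeq annotate as protein-coding is Vrk1, which encodes a nuclear protein kinase. The interval between them measures 1.83 Mb (106077427 to 107910402). By their summits, it held 21 Scid.adh.2C2 peaks, which covered 29.8 kb, and no peak of the B cell progenitor line. The fold ranged from 4.69 to 34.8 with a median of 8.29. GENCODE alone places 1 further protein-coding gene in it, 3110018I06Rik (107488632 to 107489636), whose promoter was unmarked in both lines. This gene divides the interval into a proximal stretch of 420.8 kb next to Bcl11b with 8 Scid.adh.2C2 peaks and a distal stretch of 1.41 Mb with 13. The proximal peaks had a median fold of 7.45 and covered 7.5 kb, and the distal peaks had a median fold of 10.1 and covered 22.3 kb.

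The distal stretch held the widest peak of the Scid.adh.2C2 list. It reached from 106574172 to 106585740, measured 11.6 kb, was 34.8-fold enriched (−log10 q of 171, IDR score of 1000) and had its summit 1.42 Mb downstream of the Bcl11b TSS. By width it ranked 1 of 15513, and by fold 1208. Among the 3722 peaks outside promoter windows, which are 24.0% of the list, it ranked 1 by width and 15 by fold. It covers the last exon of Gm17033, a long non-coding gene transcribed in the opposite direction to Bcl11b, but the only annotated TSS of Gm17033 lies 15.4 kb from the edge of the peak and was unmarked. The next widest peaks of the list lay at Tcf7 (10.0 kb, 36.0-fold), Bcl11b (9.8 kb), Nr3c1 (9.6 kb, 24.1-fold) and Gata3 (9.3 kb, 32.8-fold), all at promoters. Nr3c1 encodes the glucocorticoid receptor and is named here because of its rank. Small peaks of 5.39-fold and 10.1-fold flanked the distal domain, and the 3 peaks together spanned 13.0 kb.

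The remaining distal peaks were narrower. An intergenic peak of 1.3 kb stood 1.69 Mb downstream of the TSS and was 20.3-fold enriched, 15.9 kb away from the unmarked TSS of Gm17032. Peaks of 6.45-fold and 11.9-fold stood 1.34 Mb and 0.96 Mb downstream, the second over 2.1 kb, with no annotated TSS within 50 kb of either.

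Around 0.85 Mb downstream lay a group of peaks at the adjoining long non-coding genes Gm16084 and Gm2800. Within Gm16084 (107147164 to 107160207, minus strand), 5 peaks of 4.69-fold to 12.1-fold were spread over 10.4 kb, all with the summit in an intron. The highest, 1.4 kb wide with its summit 844.4 kb from the Bcl11b TSS, and the 4.74-fold peak next to it overlapped the promoter window of Gm16084. The Gm2800 promoter, whose TSS is 23.3 kb away on the plus strand, had a single peak of 10.3-fold over 1.3 kb. A 6.13-fold peak of 0.4 kb lay on the other side, 9.8 kb from the unmarked TSS of Gm16085. No peak of Scid.adh.2C2 was found in the next 460.5 kb towards Bcl11b, the longest gap between its peaks in the region.

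The proximal stretch began with an 11.0-fold intergenic peak 357.5 kb downstream of the Bcl11b TSS. The long non-coding gene 4930465M20Rik held 4 short peaks of 0.3 kb to 0.5 kb with a fold from 5.45 to 8.29, of which 2 overlapped its promoter window. In the intron of Gm15208, a peak of 3.3 kb reached a fold of 19.8 at a distance of 234.5 kb and ranked 1025 by width in the list. The TSS of Gm15208 lay 13.4 kb from it and was unmarked. The stretch also held a 5.47-fold peak beside it and a 9.08-fold intergenic peak 191.0 kb from the Bcl11b TSS.

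**Figure D2:**
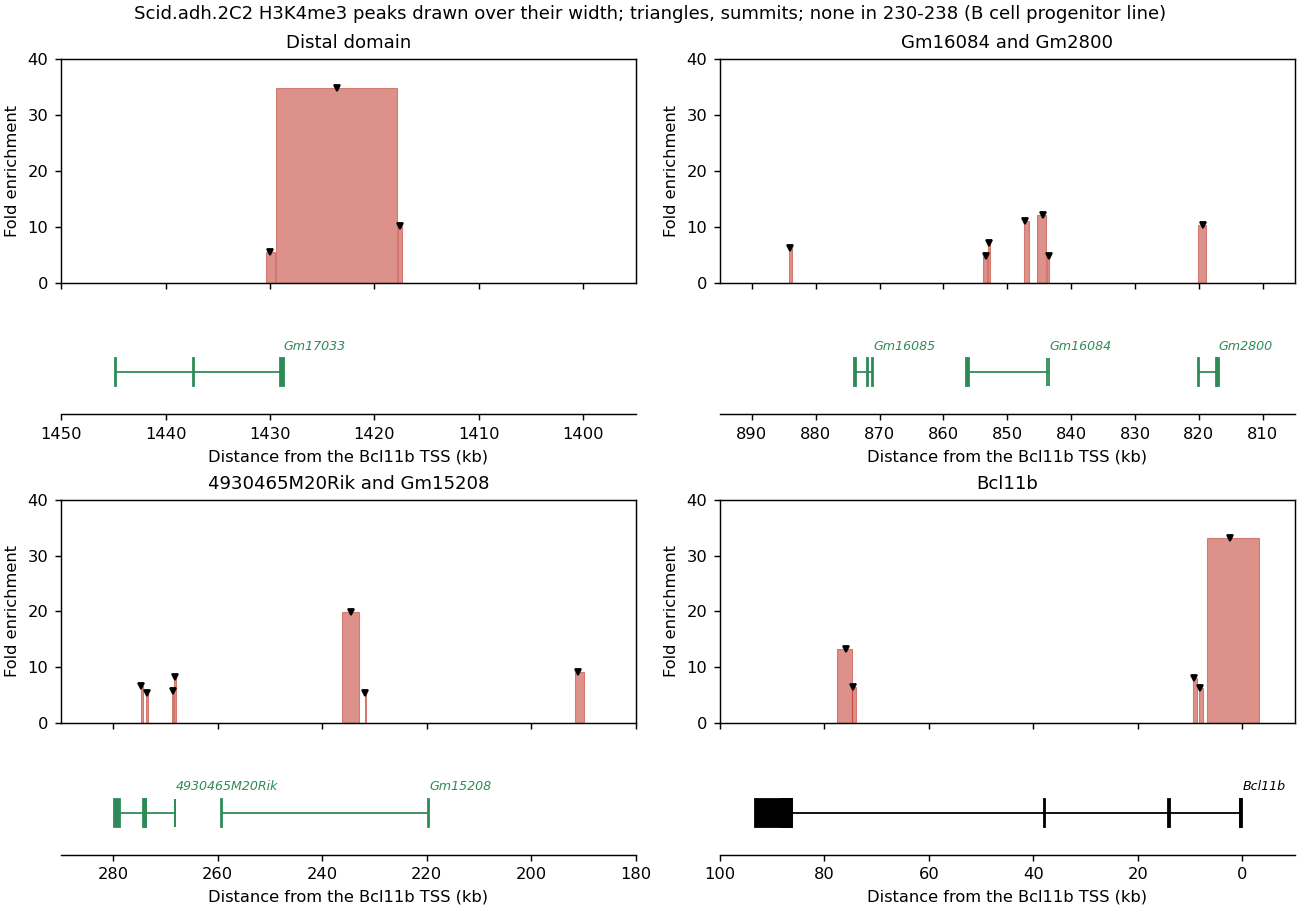
Scid.adh.2C2 peaks drawn to scale as boxes, with width along x (distance from the Bcl11b TSS in kb) and fold enrichment along y, in 4 windows: the distal domain, Gm16084 and Gm2800, 4930465M20Rik and Gm15208, and Bcl11b. Triangles mark summits and the gene models below show exons as blocks. The 11.6 kb and 9.8 kb domains stand out from the peaks at the non-coding genes, which were at most 3.3 kb wide.

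In the region, the B cell progenitor line had peaks only at Vrk1, Setd3 and Ccnk, so that shared peaks could lie nowhere else. A Scid.adh.2C2 peak was counted as shared if a peak of the B cell progenitor line overlapped it by 1 bp or more. The Vrk1 promoter peak was 28.8-fold enriched in Scid.adh.2C2 and 20.2-fold in the B cell progenitor line. The divergent promoters of Setd3, which encodes a methyltransferase of actin, and Ccnk, which encodes cyclin K, lie 176.0 kb upstream of Bcl11b and shared a pair of peaks. These were 29.7-fold and 41.1-fold in Scid.adh.2C2, and 14.9-fold and 24.1-fold in the B cell progenitor line. The 41.1-fold peak was the highest of the region and ranked 214 of its list. Between the Vrk1 and the Setd3 peaks, the list of the B cell progenitor line had no peak over 2.16 Mb. Such a gap ranked 193 of 19583 between neighbouring peaks of that list, whose median gap was 21.2 kb. In Scid.adh.2C2, 26 consecutive peaks over 1.7 Mb of this gap, from the intergenic peak 1.69 Mb away to the Bcl11b domain, had no peak of the B cell progenitor line among them. By number of peaks this ranked 1 of 2276 such stretches of the Scid.adh.2C2 list, and the next held 22 peaks over 5.29 Mb of chromosome 7, which is longer in bp. As the region was selected on this contrast, the rank is a description and was not tested. In the other direction, the B cell progenitor line had a stretch of 27 peaks over 2.4 Mb of chromosome 6 with no Scid.adh.2C2 peak, the first of its 3773 stretches.

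Over the whole region, 30 of the 33 Scid.adh.2C2 peaks and 0 of the 3 peaks of the B cell progenitor line had no partner in the other list. In the whole lists, 25.6% of the Scid.adh.2C2 peaks and 39.3% of those of the B cell progenitor line had none, and among the Scid.adh.2C2 peaks outside promoter windows 62.4% had none. The region was selected on this contrast, and nothing is read from the difference. Of the 30 peaks without a partner, 26 lay downstream of the Bcl11b TSS and 4 upstream, 13 were at least 10-fold enriched, 5 at least 20-fold, and 18 were under 1000 bp wide. Their median fold was 8.68, against 9.08 for all 3964 Scid.adh.2C2 peaks without a partner, and their median width was 857.5 bp against 840 bp. These medians lay near each other, but an IDR score under 1000 was found for 30% of the 30 peaks and for 14.3% of all Scid.adh.2C2 peaks without a partner. The 2 domains made up 38.7% of the 55.2 kb that all 33 peaks covered. The 4 upstream peaks lay at Ccdc85c and in an intron of Eml1.

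**Figure D3:**
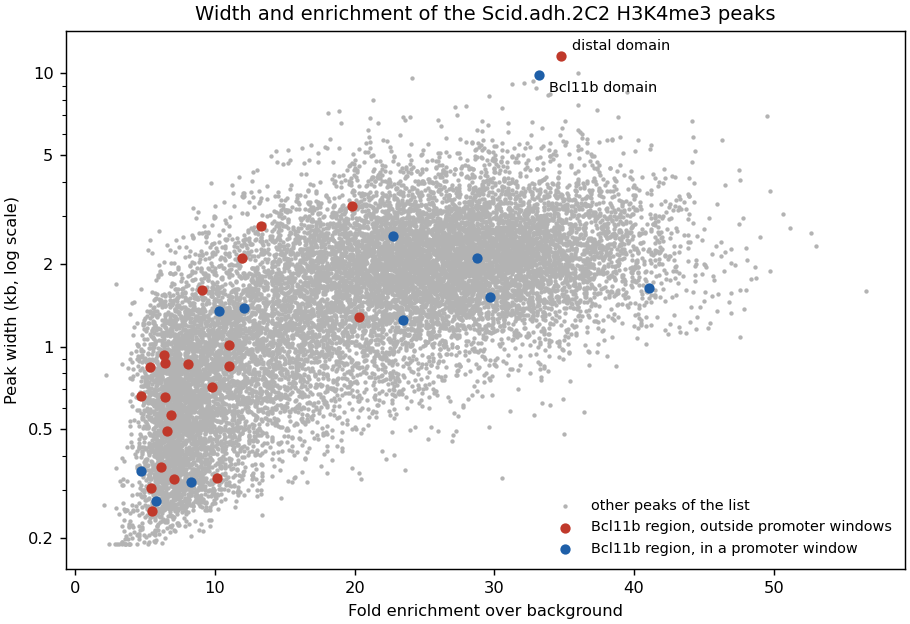
Width in kb (y, log scale) against fold enrichment (x) of all 15513 Scid.adh.2C2 peaks, with the 33 peaks of the Bcl11b region in colour, 22 of them outside promoter windows (red) and 11 in a promoter window (blue). The distal domain (11.6 kb) and the Bcl11b domain (9.8 kb) lie at the upper edge, and most other peaks of the region lie below 15-fold.

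Of the 9 protein-coding genes with a TSS in the region, 5 were marked in Scid.adh.2C2 and 3 in the B cell progenitor line. These compare with the shares of 45.5% and 48.2% over all protein-coding genes. Vrk1, Setd3 and Ccnk were marked in both lines. Bcl11b and Ccdc85c were marked in Scid.adh.2C2 only, as were 3.28% of all protein-coding genes, whereas 5.96% were marked in the B cell progenitor line only and none of these lay in the region. Ccdc85c, which encodes a coiled-coil protein of cell junctions, had peaks of 22.7-fold and 23.5-fold at its promoter, 271.8 kb upstream of Bcl11b. The promoters of 3110018I06Rik, Hhipl1, Cyp46a1 (a cholesterol hydroxylase of neurons) and Eml1 (a microtubule-associated protein) had no peak in either line, although 2 peaks of 9.83-fold and 6.87-fold lay within Eml1 in Scid.adh.2C2.

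Long non-coding genes numbered 17 in the region. Gm16084, Gm2800 and 4930465M20Rik were marked in Scid.adh.2C2, with a highest fold of 12.1, 10.3 and 8.29, and none was marked in the B cell progenitor line. Over all 10155 long non-coding genes, 16.5% were marked in Scid.adh.2C2 and 18.7% in the B cell progenitor line. The share marked in a single line was 2.54% for Scid.adh.2C2 and 4.73% for the B cell progenitor line. The other 14, among them Gm17033 and Gm15208 with strong peaks away from their TSS, were unmarked, as were the 8 pseudogenes and 1 small RNA gene of the region. With the TSSs of RefSeq, 4930465M20Rik was the only marked long non-coding gene, so that the count of marked non-coding promoters depends on the annotation.

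The desert was then set beside the other long intervals without protein-coding genes. With genes that both annotations call protein-coding as borders, the autosomes and the X chromosome held 275 intervals of at least 1 Mb. The median number of peaks per interval was 0 in each line, and 129 intervals had no peak in either. The interval from Vrk1 to Bcl11b held the most Scid.adh.2C2 peaks without a partner, 21, which was also the highest number per Mb, 11.5. The region was selected on the peaks of these same lists, and the borders were added after seeing the data. The rank therefore describes the selection and was not tested. The first place per Mb depends on the minimum length. With 661 intervals of at least 0.5 Mb, the interval still held the most such peaks but ranked 4 per Mb, and the first was an interval of 0.6 Mb on chromosome 11 with 18.3 per Mb. With GENCODE alone as the border, the interval from Vrk1 to 3110018I06Rik ranked 1 of 270 with its 13 peaks, while the 420.8 kb next to Bcl11b were too short to be ranked. The next interval, from Olfr1507 to Dad1 on chromosome 14, held 11 such peaks of Scid.adh.2C2 beside 6 of the B cell progenitor line. It contains 171 T cell receptor gene segments, which the annotation does not class as protein-coding. The interval from Celf2 to Gata3 on chromosome 2 came next, with 9 Scid.adh.2C2 peaks of 4.05-fold to 14.5-fold and no peak of the B cell progenitor line. Neither interval had a peak as strong as the distal domain of Bcl11b, with highest folds of 19.6 and 14.5.

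**Figure D4:**
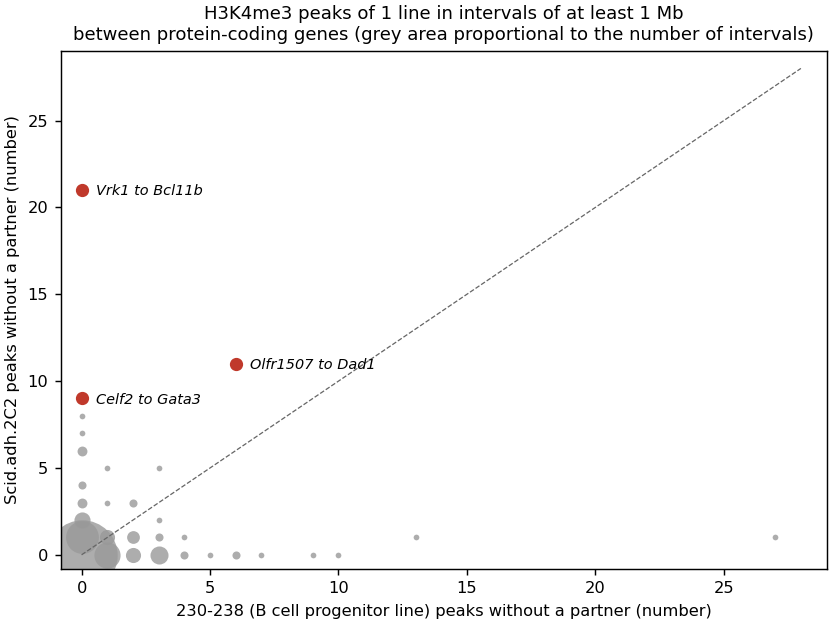
Number of Scid.adh.2C2 peaks without a partner (y) against the number of peaks of the B cell progenitor line without a partner (x) in the 275 intervals of at least 1 Mb between genes that both annotations call protein-coding. Grey areas are proportional to the number of intervals at a point, red points of fixed size are the 3 intervals with the most Scid.adh.2C2 peaks without a partner, and the dashed line marks equal numbers. The interval from Vrk1 to Bcl11b stands at 21 and 0.

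In base composition, the peaks of the region outside promoter windows lay near the other peaks of this kind. The observed over expected CpG ratio, which is high in CpG islands, was below 0.6 in all 22 peaks of the region outside promoter windows and in 95.1% of all 3722 such peaks. Its median was 0.236 in the region and 0.275 in all, and the median G + C content was 47.4% and 47.7%. The distal domain had a ratio of 0.207 and a G + C content of 44.5% over its 11.6 kb. Over its whole width, the widest peak of the list thus lay in CpG-poor sequence. In the 300 bp around its summit, the ratio was 0.689 at a G + C content of 39.7%. The summit windows 1.69 Mb and 76.0 kb downstream of the Bcl11b TSS were also above 0.6, with 0.678 and 1.00. Their G + C content was 58.3% and 39%. The share of such windows above 0.6 in the whole list is not given here. No other summit window of the region's peaks outside promoter windows exceeded 0.6. The Bcl11b domain had a ratio of 0.576 and 53.8% G + C. At the promoter peaks of the region, protein-coding and non-coding genes were apart. The ratio was 0.731 at Vrk1, 0.850 and 0.697 at Setd3 and Ccnk, and 0.749 and 0.619 at Ccdc85c, whereas the 5 peaks at Gm16084, Gm2800 and 4930465M20Rik lay between 0.0833 and 0.315. The median over all 11791 promoter peaks of the list, at genes of any type, was 0.571. A median for non-coding promoters alone is not given, so that the contrast is limited to the few peaks of the region. Repeats, which the genome file gives in lower case, took up a median of 13.9% of the 22 peaks outside promoter windows and 13.6% of all such peaks. The 21 peaks between Vrk1 and Bcl11b, of which 5 were in promoter windows, had a median CpG ratio of 0.233, a median G + C content of 46.9% and a median repeat share of 11.5%.

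**Figure D5:**
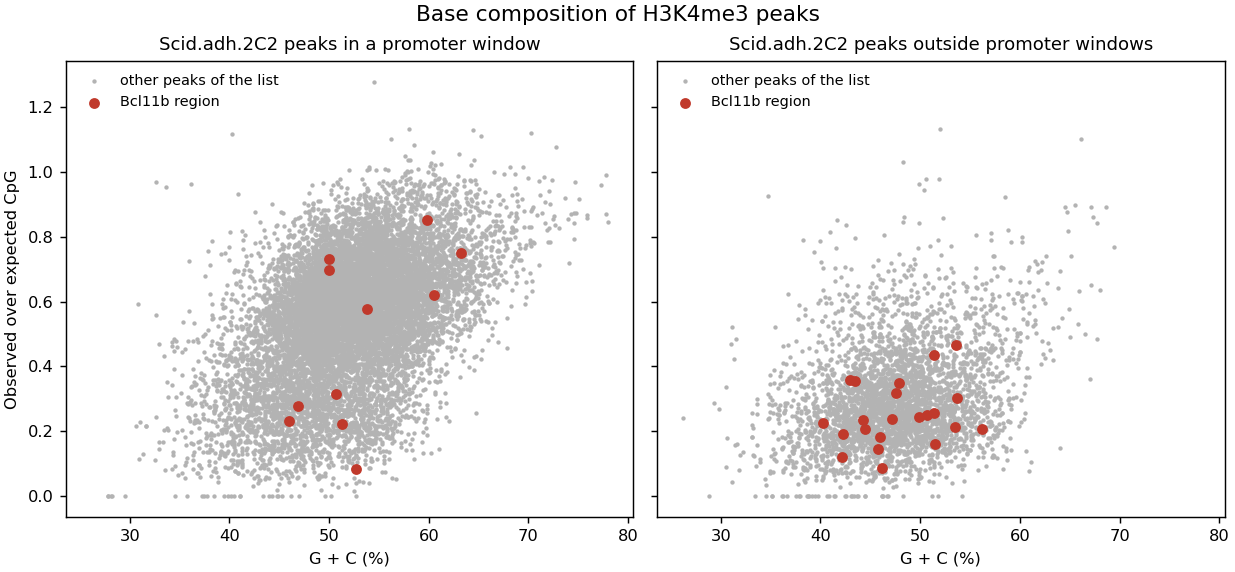
Observed over expected CpG (y) against G + C content in % (x) of Scid.adh.2C2 peaks in promoter windows (left) and outside them (right), with the 11 and 22 peaks of the Bcl11b region in red. The region's peaks outside promoter windows all lie below 0.6, and the 5 peaks at non-coding promoters lie at 0.315 or lower.

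The motifs were counted in the 300 bp around each summit. Outside promoter windows, 4 of the 22 windows of the region held a GATA match (18.2%, and 16.1% of all 3722 windows of this kind). A Tcf7/Lef1 match was found in 2 (9.09%, against 7.52%) and a Runx match in 5 (22.7%, against 24.9%). E protein matches were found in 3 (13.6%, against 19.4%) and an Rbpj match in 1 (4.55%, against 7.33%). With 22 windows, 1 window more or less moves a share by 4.55 percentage points, and the shares of the region lay near those of all windows of this kind. The highest Gm16084 peak and the 19.8-fold peak in Gm15208 held no match to any of the 5 motifs.

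Among genes linked to Bcl11b, only Scid.adh.2C2 had promoter peaks at the upstream regulator Gata3, and only the B cell progenitor line had one at the paralogue Bcl11a. All 4 upstream regulators were marked in Scid.adh.2C2, and 3 of them in both lines, beside 45.5% and 42.2% of all protein-coding genes. Of the 3, Tcf7 had a peak of 36.0-fold over 10.0 kb in Scid.adh.2C2 and of 15.2-fold over 1.3 kb in the B cell progenitor line. Notch1, the receptor that starts the T-lineage programme, had a highest fold of 19.8 with 7.8 kb covered in Scid.adh.2C2, and of 19.6 with 3.0 kb covered in the B cell progenitor line. Runx1 had 29.6-fold and 27.2-fold peaks, with 6.5 kb covered in Scid.adh.2C2 and 12.1 kb in the B cell progenitor line. Bcl11a, which B-lineage cells require, had no promoter peak in Scid.adh.2C2 and a 15.0-fold peak of 9.5 kb in the B cell progenitor line.

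All 6 genes of proteins that act with Bcl11b were marked in both lines, as were 42.2% of all protein-coding genes. These were the chromatin remodelling and deacetylase genes Chd4, Mta2, Hdac1 and Hdac2, the Polycomb ubiquitin ligase gene Rnf2, and Cbfb, which encodes the partner of the Runx factors. Their highest fold ranged from 16.8 at Hdac2 to 38.6 at Mta2 in Scid.adh.2C2. Of the 4 genes that Bcl11b is known to repress in T cell progenitors, Id2, an inhibitor of E proteins, was marked in both lines, with 25.6-fold in Scid.adh.2C2 and 27.7-fold in the B cell progenitor line. Zbtb16, Kit and Il2rb, which are used by innate-like lymphocytes, stem cells and natural killer cells, had no promoter peak in either line.

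Among the 719 protein-coding genes marked in Scid.adh.2C2 only, Bcl11b ranked 70 by its highest promoter fold and 1 by the width of that peak. The median of these peaks was 19.2-fold and 1656 bp. The 3 genes outside the region closest to Bcl11b in fold, of 717, were Rnf125, Map2k6 and 2610008E11Rik, with 33.1-fold, 33.2-fold and 33.1-fold peaks. Likeness was measured over the 2 lines only, as the distance in log2 fold among genes unmarked in the B cell progenitor line. Their peaks were 1.4 kb to 2.2 kb wide. As Bcl11b ranked first by width among these genes, none could have had a wider peak.

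At the borders of the region, the outermost Scid.adh.2C2 peaks lay 9.7 kb and 45.9 kb inside, with 28.8-fold and 6.87-fold. The nearest peaks outside lay 36.6 kb and 201.7 kb away, with 18.9-fold and 11.2-fold. In the B cell progenitor line the nearest peaks outside lay 213.3 kb and 134.7 kb away, with 17.4-fold and 8.12-fold.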

How the data were processed

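H3K4me3 ChIP-seq peaks of Scid.adh.2C2 cells and of the Abelson-transformed B cell progenitor line were used as deposited. Per the labels and the study's methods, the authors trimmed reads (Trim Galore 0.6.7), mapped them to mm10 (GRCm38; Bowtie2 2.4.4), called narrow peaks against input (MACS2 2.2.7.1, q of 0.05) and kept the optimal IDR set of 2 replicates. The score, fold ratio and −log10 p and q of each peak are the authors' values. Depth is not given in the sources used here. Genes came from GENCODE M21, and sequence and further TSSs from RefSeq GRCm38.p6. Overlaps, gaps and base composition were computed with Python 3.11.15, numpy 2.4.6, pysam 0.24.0 and matplotlib 3.10.9, and overlap functions were tested on simulated data. Nothing was tested between the lines. Named genes were all protein-coding genes and marked non-coding genes of the region, the linked and marker lists, the 3 genes nearest Bcl11b in fold and the 3 leading intervals. Also named were some unmarked non-coding genes nearest to a described peak, and Nr3c1 for the width of its peak. The members and lists were chosen with earlier results of these data known. The planned desert was bounded by GENCODE genes. This gave 420.8 kb next to Bcl11b, under the 1 Mb minimum, and borders protein-coding in both annotations were added after seeing the data.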

Additional observations from a re-analysis of the deposited data

How the results depend on the processing

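Of 90 values under alternative settings, 32 could not leave 1.5 times the reported count or rank. These were Scid.adh.2C2 counts at equal list lengths, where that list is not cut, counts of 0 under settings that only drop or join peaks, loosen the partner rule or narrow promoter windows, and a few values already at their limit. Of the other 58, 48 stayed within 1.5 times and 10 did not. With peaks of at least 10-fold enrichment, the region held 16 Scid.adh.2C2 peaks in place of 33, 13 without a partner in place of 30, 9 between Vrk1 and Bcl11b in place of 21, and 2 in the 420.8 kb next to Bcl11b in place of 8. With an IDR score of 1000 the last count was 5, and the Bcl11b promoter was unmarked (0 in place of 1). With peaks within 1000 bp merged, 21 Scid.adh.2C2 peaks were left, 19 of them without a partner. With RefSeq TSSs, an alternative chosen after seeing the data, 1 long non-coding promoter was marked in place of 3. These changes follow from the settings themselves, which drop, join or reassign peaks. No setting could add a peak of the B cell progenitor line between Vrk1 and Bcl11b. The rank of 1 of the interval from Vrk1 to Bcl11b held with intervals of at least 500 kb and per Mb among intervals of at least 1 Mb. It also held with GENCODE borders, where the interval ends at 3110018I06Rik, an alternative that was likewise chosen after seeing the data. Per Mb among intervals of at least 500 kb, an alternative added after seeing the data, the rank was 4 in place of 1. The rank was not recomputed with the fold threshold, the IDR threshold or merged peaks, which lower the count of peaks in the interval. Ranking the 420.8 kb interval itself could not be run. No paired analysis was possible because the lists combine the replicates, and for the same reason no replicate could be left out. With depth unknown, a missing peak says only that none passed the authors' thresholds.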
